A study of Mus musculus with 6 samples.

Results

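The chemokines that the adult brain itself makes, and the receptor pair that several of its cells carry, were followed as 7 genes in the hippocampus: the ligands Cx3cl1, Cxcl14, Cxcl12, Cxcl16 and Cxcl10, and the receptors Cxcr4 and Ackr3. They were taken by gene symbol from a table of 54532 genes, and all 7 were among the 20952 genes that were tested. Hippocampal RNA was sequenced from 3 wild-type (WT) mice and 3 transgenic (TG) mice. The TG line was made by CRISPR/Cas9 knock-in of the amino acid changes G82R and L85P into exon 3 of Slc1a2, the gene of the glutamate transporter GLT-1, on a C57BL/6N background, and the question for these genes was whether their RNA differed between TG and WT hippocampus. Whether the sequenced TG mice carried 1 or both altered copies, and the age and sex of the sequenced mice, are not given in the sources used here. The change sits in the germline gene, so every cell of a TG mouse carries it and no promoter or Cre limits it to a cell type. Expression values carry no bases, so the genotype could not be read from them. Libraries WT1, WT2 and WT3 come from the WT mice and libraries TG1, TG2 and TG3 from the TG mice, and values of single libraries are given in that order.

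Chemokines are small secreted or membrane-tethered proteins that bind G protein-coupled receptors and steer the movement of cells along a gradient. In the brain some are made constantly: Cx3cl1 (fractalkine) sits on neurons and speaks to the receptor Cx3cr1 on microglia, and Cxcl12 guides migrating neurons and is made by vessels, meninges and neurons. Others, such as Cxcl10, are switched on by interferons and draw T cells. Cxcr4 is the signalling receptor of Cxcl12, whereas Ackr3 binds the same ligand, takes it up and signals mainly through arrestins.

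The values are FPKM, the fragments of a gene divided by its length in kb and by the sequencing depth of the library, a level that takes gene length into account and so can be compared between genes. Between 16081281 and 18751057 reads per library lay on genes, and 3 reads on a gene of 1 kb made 0.160 to 0.190 FPKM. TG1 and TG2 stood apart in choroid plexus markers, whose 9 genes (led by Ttr, the thyroxine carrier of the choroid plexus) summed to 57.9 to 82.2 FPKM in the WT libraries, 1212 in TG1, 3828 in TG2 and, in TG3, 66.2. Markers of hippocampal tissue were plentiful in all 6 libraries, with 1589 to 1805 FPKM over 6 genes of excitatory neurons and 658 to 905 over 10 genes of interneurons. All 6 libraries held Ddx3y, a gene of the Y chromosome (10.6 to 12.3 FPKM), and at most 6 reads of Xist, the RNA of the inactive X chromosome. Fewer cells of a type and less RNA per cell cannot be told apart in such bulk tissue. The labels only number the replicates within each group, and each library was taken as 1 mouse. The p-values therefore measure the spread between these samples.

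No member passed the test. With limma on log2(FPKM + 0.1) and Benjamini-Hochberg adjustment over the 20952 genes, 0 of 7 had an adjusted p under 0.05, where 0.00955% of all genes had one (2 genes, 1 in each direction), and the smallest adjusted p of a member was 0.786. Before adjustment, 1 of the 7 (Cxcl16) was higher in TG at p under 0.05, beside 3.13% of all genes, and 0 were lower, beside 2.78%. In 1 of the 7, again Cxcl16, each TG library was above all WT libraries, beside 6.35% of all genes. Of the 7 fold changes 6 were above 0, with a median of 0.078 on the log2 scale (all genes: -0.002).

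The 7 levels spanned a wide range and stood in the same order in 6 of 6 libraries: Cx3cl1, Cxcl14, Cxcl12, Ackr3, Cxcr4, Cxcl16, Cxcl10. Cx3cl1 lay above 98.9% of the genes tested, Cxcl14 above 95.7%, Cxcl12 above 76.6%, Ackr3 above 62.5% and Cxcr4 above 41.2%. Cxcl16 (27.5%) and Cxcl10 (10.3%) were lower still, and Cxcl10 was hardly above the detection limit. By level, the name brain-expressed suits the ligands Cx3cl1, Cxcl14 and Cxcl12 better than Cxcl16 and Cxcl10. Neighbours in the order were apart in every library, and their ranges over all libraries overlapped only between Cxcr4 and Cxcl16 (lowest Cxcr4 0.734 FPKM, highest Cxcl16 0.825) and between Cxcl16 and Cxcl10 (lowest Cxcl16 0.205, highest Cxcl10 0.421).

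**Figure D1:**
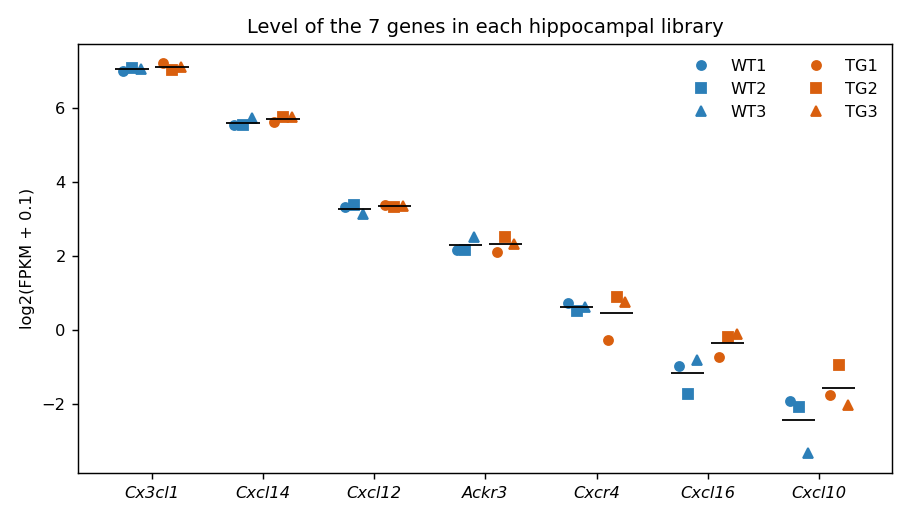
Level of each of the 7 genes, as log2(FPKM + 0.1), in each of the 3 WT and 3 TG libraries, with the genes in order of their mean level and 1 point per library. The 4 genes on the left hold their points close together, whereas Cxcr4, Cxcl16 and Cxcl10 spread, with Cxcr4 low in TG1 (0.734 FPKM) and Cxcl10 at 0 in WT3.

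Cx3cl1 was the most abundant chemokine of the tissue and differed by less than its spread between TG and WT. The gene (ENSMUSG00000031778, chr8:94772009-94782427 on the plus strand of GRCm38) had 127, 134 and 132 FPKM across the WT libraries and 146, 128 and 137 across the TG libraries. TG1 was the highest library and WT1 the lowest, and the groups overlapped. The means were 131 ± 3.45 (SD, n = 3) in WT and 137 ± 8.88 (SD, n = 3) in TG, a log2 fold change of 0.065 (95% interval -0.12 to 0.25, limma adjusted p = 0.840), and without TG1 it was 0.018. Each library held 8494 to 9718 reads of it, so counting error is small beside the spread. Excitatory neuron markers (6 genes, led by Nrgn) also summed highest in TG1, at 1805 FPKM against 1589 to 1736 in the other libraries, and their part in the level of Cx3cl1 was not tested.

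The receptor and the sheddases of Cx3cl1 stood at similar levels in both groups. Cx3cr1, its receptor and a microglial gene, had 11.0, 9.74 and 9.35 FPKM in the WT and 9.47, 11.6 and 11.6 in the TG libraries. Its groups overlapped, with TG1 at the level of WT2 and WT3, and its log2 fold change was 0.11 (95% interval -0.14 to 0.37, limma unadjusted p = 0.324). Cx3cl1 FPKM were 11.6, 13.7 and 14.1 times those of Cx3cr1 in WT and 15.4, 11.1 and 11.8 times in TG, so the ratio overlapped as well. The markers of microglia (8 genes) summed to 90.2 to 102 FPKM in WT and 84.1 to 110 in TG, with TG1 the lowest library. Of these 8, 0 had an adjusted p under 0.05 in limma, and 2, the growth factor receptor Csf1r and the lipid sensor Trem2, were higher in TG at an unadjusted p under 0.05 (log2 fold changes 0.19 and 0.26), beside 3.13% of all genes. Adam10 and Adam17, the proteases that cut Cx3cl1 and Cxcl16 off the cell surface, had log2 fold changes of 0.097 and 0.082, with mean levels of 16.9 ± 1.37 and 2.00 ± 0.106 FPKM in WT against 18.1 ± 0.443 and 2.15 ± 0.436 in TG (SD, n = 3 each).

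Cxcl14, a chemokine of interneurons whose receptor is not settled, was the next most abundant. The gene (ENSMUSG00000021508, chr13:56288643-56296551, minus strand) had 46.2, 46.6 and 52.4 FPKM in the WT and 48.7, 53.6 and 53.9 in the TG libraries. WT3 lay with the TG libraries and above TG1, so the groups overlapped. The means were 48.4 ± 3.46 and 52.0 ± 2.93 (SD, n = 3 each), with a log2 fold change of 0.11 (95% interval -0.08 to 0.29, limma adjusted p = 0.789). Without WT3 the log2 fold change was 0.16, with an unadjusted limma p of 0.0471 and an adjusted p of 0.984. Leaving out any other single library gave an unadjusted limma p of 0.101 to 0.446. The interneuron markers (10 genes, led by Sst) summed to 905 FPKM in WT3 and to 658 to 751 in the other libraries. Their median log2 fold change was -0.06, with 2 genes higher and 8 lower in TG, none of them at an unadjusted p under 0.05, and their part in the Cxcl14 level was not tested.

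Cx3cl1 and Cxcl14 together made up most of the chemokine ligand signal. Over 37 ligand genes, Cx3cl1 held 58.6 to 65.1% of the summed FPKM in a library and Cxcl14 21.7 to 24.5%. Ccl27a held 4.98 to 7.49%, Cxcl12 3.96 to 4.82% and the other 33 ligands together 3.58 to 5.90%. The shares of Cx3cl1 and Cxcl14 overlapped between WT and TG. Cxcl16 held at most 0.362% and Cxcl10 at most 0.192%. The level of Ccl27a is uncertain, since transcripts of other genes hold 44.98% of the 50-base stretches found in its own.

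**Figure D2:**
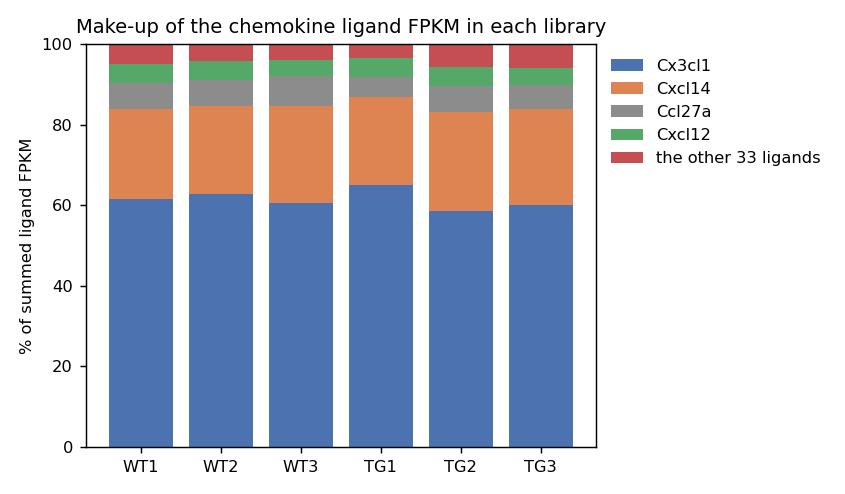
Share of the summed FPKM of 37 chemokine ligand genes held by Cx3cl1, Cxcl14, Ccl27a, Cxcl12 and the other 33 ligands together, in % and with 1 stacked bar for each of the 3 WT and 3 TG libraries. Cx3cl1 fills 58.6 to 65.1% of every bar and Cxcl14 21.7 to 24.5%.

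Cxcl12, Cxcr4 and Ackr3 form 1 signalling unit, and in none of them was a difference beyond the spread between libraries detected. Cxcl12 (ENSMUSG00000061353, chr6:117168535-117181367, plus strand) had 9.82, 10.3 and 8.62 FPKM in the WT and 10.4, 9.87 and 10.03 in the TG libraries. The TG libraries lay close together and inside or just above the WT range, whose low end was WT3. The means were 9.57 ± 0.856 and 10.1 ± 0.250 (SD, n = 3 each), with a log2 fold change of 0.078 (95% interval -0.12 to 0.28, limma adjusted p = 0.827). Without WT3 it was 0.0049, so that most of this small difference rested on that library. The coefficient of variation was 8.94% in WT and 2.48% in TG, the latter the smallest of any member in either group.

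Ackr3, the scavenging receptor of Cxcl12, had almost the same mean in both groups. The gene (ENSMUSG00000044337, chr1:90203980-90216751, plus strand) had 4.41, 4.40 and 5.60 FPKM in the WT and 4.25, 5.58 and 4.93 in the TG libraries. Each group held 1 library near 5.6, and the TG libraries spanned the same range as the WT libraries. The log2 fold change was 0.034 (95% interval -0.29 to 0.36, limma adjusted p = 0.958), from means of 4.80 ± 0.689 and 4.92 ± 0.667 (SD, n = 3 each). Its sign depended on single libraries, at -0.060 without TG2, -0.022 without WT1 and -0.023 without WT2.

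Cxcr4, the G protein-coupled partner, lay between 1.34 and 1.76 FPKM in 5 libraries and was lower in TG1. The gene (ENSMUSG00000045382, chr1:128588199-128592293, minus strand) had 1.56, 1.34 and 1.45 FPKM in WT1 to WT3, from 52, 39 and 49 reads. In TG1 to TG3 it had 0.734, 1.76 and 1.59 FPKM, from 21, 57 and 52 reads. TG1 lay below every WT library and TG2 and TG3 lay above every one, which gave a coefficient of variation of 40.4% in TG against 7.61% in WT. The exact 95% Poisson interval of TG1, which covers counting error only, ran from 0.454 to 1.12 FPKM and so stayed below the WT values, though it overlapped the intervals of WT2 (0.950 to 1.83) and WT3 (1.07 to 1.91). The log2 fold change was -0.16 (95% interval -0.87 to 0.55, limma adjusted p = 0.90), and without TG1 it was 0.20 (limma adjusted p = 0.898). Within the unit, Ackr3 FPKM were 2.84 to 3.87 times those of Cxcr4 in WT, and 5.79 times in TG1 against 3.17 and 3.09 times in the other TG libraries. Cxcl12 FPKM were 5.96 to 7.70 times those of Cxcr4 in WT, and 14.1, 5.61 and 6.30 times in TG, with TG1 again alone.

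Several lists of cells that carry Cxcl12 or its receptors were set beside them. Endothelial markers (7 genes, led by Ly6c1) summed to 73.0 to 85.5 FPKM in WT and 79.0 to 82.1 in TG. Of the 7, 1 was higher at an unadjusted p under 0.05, beside 3.13% of all genes. It was the VEGF receptor Flt1 (log2 fold change 0.24, limma adjusted p = 0.786). Mural cell markers (6 genes) summed to 67.5 to 99.1 FPKM in WT and 64.9 to 96.0 in TG, and markers of meningeal fibroblasts (7 genes) to 20.9 to 38.9 and 23.6 to 30.3. Markers of Cajal-Retzius cells, the early-born neurons that follow Cxcl12, summed over 5 genes to 3.91 to 5.13 FPKM in WT and 4.39 to 5.10 in TG. For neuroblasts the sum over 5 genes was 119 to 148 and 125 to 138 FPKM. Tubb3 alone made 114 to 144 and 121 to 135 of it, so the sum says little of the other genes. Igfbpl1 was lower in TG at an unadjusted p under 0.05 (log2 fold change -0.84, limma adjusted p = 0.786), beside 2.78% of all genes. Eomes, too low to be tested, had 27, 5 and 3 reads in WT and 0, 2 and 1 in TG. Dcx and Sox11 had log2 fold changes of 0.046 and 0.054. In TG1, where Cxcr4 was low, the microglial sum was the lowest of the 6 libraries (84.1 FPKM), as was the oligodendrocyte sum (5 genes, 411 FPKM against 521 to 667 in the others). Astrocyte markers (6 genes) lay between 446 and 505 FPKM in all libraries and blood genes (3 genes) between 130 and 184. The part of these cell types in the levels of Cxcl12, Cxcr4 and Ackr3 was not tested.

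The remaining members, Cxcl16 and Cxcl10, were low and had the largest fold changes of the 7. Cxcl16 (ENSMUSG00000018920, chr11:70453983-70459984, minus strand) is a membrane-bound chemokine of macrophages, endothelium and glia that also takes up oxidised lipoprotein. It had 0.412, 0.205 and 0.477 FPKM in the WT and 0.502, 0.776 and 0.825 in the TG libraries, from 23, 10 and 27 reads and from 24, 42 and 45 reads. The lowest TG library lay above the highest WT library, but TG1 held 3 reads fewer than WT3 at a lower depth, and their counting intervals (0.322 to 0.747 and 0.315 to 0.695 FPKM) covered each other. The means were 0.365 ± 0.142 and 0.701 ± 0.174 FPKM (SD, n = 3 each).

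The fitted difference of Cxcl16 was 0.81 on the log2(FPKM + 0.1) scale (95% interval 0.05 to 1.58), a fold of 1.76 (1.03 to 2.99), which understates the change of a gene this low. Its unadjusted limma p was 0.0405, its adjusted p 0.786, and its exact two-sided permutation p 0.1, the smallest that 3 against 3 libraries allow. Without WT2, the lowest library, the log2 fold change was 0.53, and the unadjusted p was above 0.05 when WT1, WT2, TG2 or TG3 was left out (0.0607 to 0.127). A stretch of 18.3% of its exon bases lies over Zmynd15 on the opposite strand (mean 0.0958 FPKM), and since the counting is not stated to use strand, reads there cannot be assigned to either gene.

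Cxcl10, the interferon-induced ligand of Cxcr3, a receptor on T cells, was at the edge of detection. The gene (ENSMUSG00000034855, chr5:92346638-92348889, minus strand) had 0.168, 0.137 and 0 FPKM in WT1 to WT3, from 7, 5 and 0 reads. The exact 95% Poisson interval of WT3 reached up to 0.0875 FPKM. In TG1 to TG3 it had 0.196, 0.421 and 0.148 FPKM, from 7, 17 and 6 reads. TG2 was high and WT3 low, and the remaining 4 libraries held 5 to 7 reads each, so the groups overlapped and TG3 lay below WT1. The means were 0.102 ± 0.0895 and 0.255 ± 0.146 FPKM (SD, n = 3 each), with a log2 fold change of 0.86 (95% interval -0.39 to 2.11, limma adjusted p = 0.789). It was 0.55 without TG2 and 0.42 without WT3. Of its exon bases 5.91% lie over Art3 on the opposite strand, a gene with a mean of 0.780 FPKM.

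**Figure D3:**
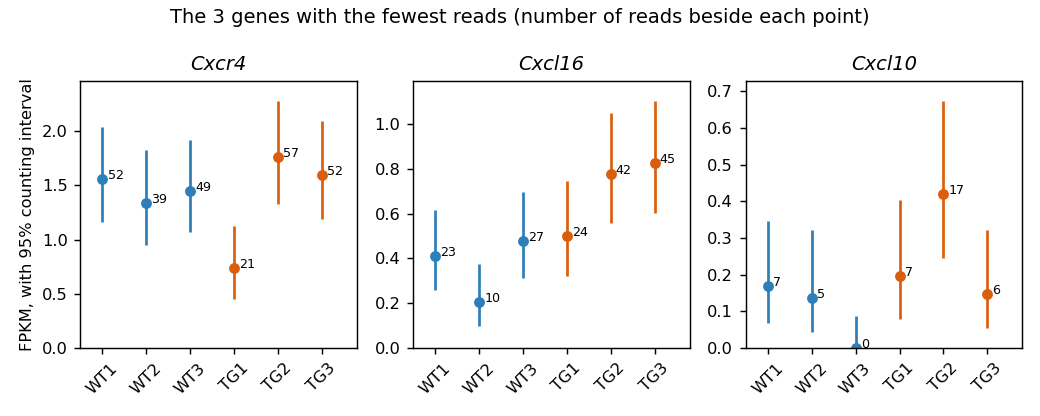
FPKM of Cxcr4, Cxcl16 and Cxcl10, the 3 genes with the fewest reads, in each of the 3 WT and 3 TG libraries, with exact 95% Poisson intervals that cover counting error only and the number of reads beside each point. Cxcr4 in TG1 (21 reads) lies below the other libraries, Cxcl16 rests on 10 to 45 reads, and the intervals of Cxcl10 overlap between most libraries.

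The bases upstream of Cxcl10 and Cxcl14 are shown because these 2 members, the lowest and the next to highest in level, were the ones that matched the core of the interferon-stimulated response element (ISRE), the site of interferon-activated factors. The 250 bases before the RefSeq start are given 5′ to 3′ on the gene's own strand in GRCm38.p6, for Cxcl10 chr5:92348890-92349139 and for Cxcl14 chr13:56296552-56296801, both on the minus strand. Capitals mark matches to the ISRE core and, in Cxcl10, to the NF-kB site.
Cxcl10: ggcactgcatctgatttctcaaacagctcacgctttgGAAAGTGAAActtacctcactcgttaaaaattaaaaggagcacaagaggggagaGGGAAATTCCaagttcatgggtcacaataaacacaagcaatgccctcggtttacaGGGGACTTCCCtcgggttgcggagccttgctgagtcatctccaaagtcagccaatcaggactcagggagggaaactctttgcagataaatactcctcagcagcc
Cxcl14: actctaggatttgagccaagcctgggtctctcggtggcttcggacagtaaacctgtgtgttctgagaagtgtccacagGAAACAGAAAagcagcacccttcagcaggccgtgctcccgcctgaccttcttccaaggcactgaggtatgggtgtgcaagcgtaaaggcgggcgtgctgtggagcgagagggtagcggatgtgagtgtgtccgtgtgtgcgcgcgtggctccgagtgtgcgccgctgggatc
The ISRE core was searched as GAAANNGAAA on both strands in 32851 RefSeq promoters of 27025 genes, each from 250 bases before to 50 after the start, and 3.44% held a match. In Cxcl10 the match lay at -213 to -204 from the start and in Cxcl14 at -172 to -163. The NF-kB site, searched by its usual consensus, was in 8.46% of the promoters. Cxcl10 held it at -159 to -150 and in a pair of overlapping matches at -104 to -95 and -103 to -94, the latter of which reads as a match on both strands. Of the 7 members 6 had an entry in the table, and Cxcl16 had none. The Cxcl10 promoter had 10 CpG and the Cxcl14 promoter 22, where the median of all was 7. Cxcl12, with 20 CpG, held the GC box (GGGCGG, in 35.7% of all promoters) at 5 places. Cx3cl1 and Ackr3 held the TATA box (TATAAA, in 13.6%) close to the start, and Cxcr4 held it on both strands between -32 and -25. A match is a description of letters and says nothing of binding.

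Genes of the interferon response and of T cells were set beside Cxcl16 and Cxcl10. All 16 interferon response genes had a fold change above 0, as had 10398 of the 20952 genes tested. Their median was 0.54, and 0 of 16 had an adjusted p under 0.05 (limma). The paper had reported interferon terms among the genes raised in TG in these same data, and the list was chosen with earlier results known. Its counts are therefore a description and no independent test. Of the 16, 7 were higher at an unadjusted p under 0.05 (3.13% of all genes were) and 8 had every TG library above every WT library (6.35% of all genes had). Bst2, the tethering protein that holds virus particles on the cell and the most abundant of them, had 4.85 ± 0.810 FPKM in WT and 13.8 ± 9.39 in TG (SD, n = 3 each), with a log2 difference of 1.30. The other 6 were the transcription factor Irf7 (1.02), the guanylate-binding proteins Gbp2 (1.18) and Gbp3 (0.86), Ifit1 (1.01), Oasl2 (0.79) and Usp18 (0.77), with log2 fold changes in parentheses. Measured from the WT mean, the median of the list was highest in TG2 (0.92), followed by TG3 (0.62), TG1 (0.18) and WT1 (0.18), and lowest in WT2 (-0.14). Cxcl10 was also highest in TG2, but in TG3 it was below WT1.

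The markers of T and NK cells (6 genes) summed to 0.583 to 0.652 FPKM in WT and 1.52 to 3.23 in TG, so these sums did not overlap. Of the 6, 4 were tested and all 4 had a fold change above 0, as had 10398 of the 20952 genes tested. In 2 of the 4 every TG library was above every WT library (6.35% of all genes), and 1 was higher at an unadjusted p under 0.05 (3.13% of all genes). This was Trbc2, a chain of the T cell receptor, which led them with 0.360 ± 0.192 and 1.32 ± 0.659 FPKM (SD, n = 3 each). It rested on 2, 6 and 5 reads in the WT and 10, 12 and 26 in the TG libraries. Its log2 difference was 1.63, with an unadjusted limma p of 0.00632 and an adjusted p of 0.786, and 0 of the 4 had an adjusted p under 0.05. Cd3e, which defines T cells, had 0 to 3 reads in the WT and 2 to 6 in the TG libraries. The 5 markers of border macrophages, led by the mannose receptor Mrc1, had fold changes above 0, 0 of them at an unadjusted p under 0.05 in limma, and sums of 1.63 to 2.24 FPKM in WT and 2.34 to 2.91 in TG. Choroid plexus markers were at the WT level in TG3 only among the TG libraries, and for Cxcl16 TG3 alone against WT gave a log2 fold change of 1.04 (limma adjusted p = 0.976, with the lone library assumed to vary like the others). The part of T cells, macrophages and choroid plexus in the levels of Cxcl16 and Cxcl10 was not tested.

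The receptors of these ligands were barely detected. Cxcr3 had 7, 0 and 1 reads in the WT and 6, 7 and 9 in the TG libraries, with a log2 fold change of 1.09 (limma adjusted p = 0.786). Cxcr6, the receptor of Cxcl16, had 3, 1 and 0 reads and 2, 14 and 6 reads, with 1.07 (limma adjusted p = 0.789). Ccl5, another T cell attractant, had 7, 5 and 1 reads and 5, 36 and 13 reads. Cxcl9, which shares the receptor of Cxcl10 and was too low to be tested, had 1, 0 and 0 reads and 2, 15 and 2. In Cxcr6, Ccl5 and Cxcl9, as in Cxcl10, TG2 held the most reads. In Cxcr3 and in the ligands Ccl8 (29 reads) and Cxcl13 (5 reads) TG3 held the most, and Cxcl11 had 0 reads in every library. These receptors and further ligands were named after their values were seen.

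**Figure D4:**
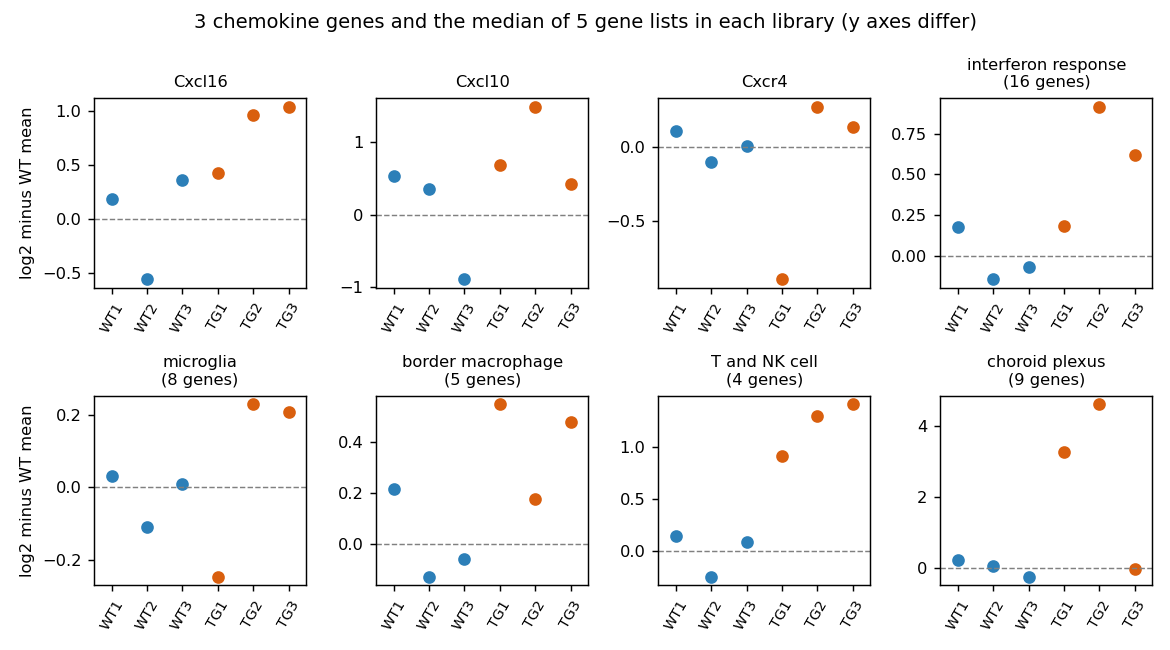
Cxcl10, Cxcl16 and Cxcr4 and the median of 5 gene lists in each of the 3 WT and 3 TG libraries, as log2(FPKM + 0.1) minus the mean of the WT libraries, with a y axis of its own in each panel. The interferon response median was 0.92 in TG2 and 0.62 in TG3, and the choroid plexus median was 4.62 in TG2, 3.27 in TG1 and -0.01 in TG3.

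The rest of the chemokine family was mostly low. Of 32 further ligands, 15 were tested, 20 had at most 10 reads in any library and 3 were at 0 in all of them. Of the 15, 8 had a fold change above 0 and 7 below, with a median of 0.18. With an adjusted p under 0.05 there were 0 (limma). At an unadjusted p under 0.05 there were 0 higher (3.13% of all genes were) and 1 lower (2.78% were), Ccl28. This ligand of mucosal surfaces had 0.592, 1.20 and 1.20 FPKM in the WT and 0.509, 0.599 and 0.560 in the TG libraries, which gave a log2 fold change of -0.69 (limma adjusted p = 0.786). Its WT1 value lay among the TG values, so the groups overlapped.

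Few of these other ligands reached 1 FPKM. Ccl27a, the most abundant, had 13.5, 13.9 and 16.3 FPKM in WT and 11.2, 14.4 and 13.5 in TG, a log2 fold change of -0.17 with overlapping groups. A near-copy of Ccl27a on an unplaced scaffold had 1.05, 0.0857 and 0.888 FPKM in WT and 1.75, 1.70 and 1.76 in TG, a log2 fold change of 1.63 at an unadjusted limma p of 0.0379, and because the copies share sequence, reads may be split between them. Ccl17, a T cell attractant, had 1.55 ± 0.334 FPKM in WT and 1.19 ± 0.669 in TG, and the monocyte attractant Ccl12 had 0.910 ± 0.406 and 1.16 ± 0.129 (SD, n = 3 each), with log2 fold changes of -0.46 and 0.40.

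Of 21 further receptors, 9 were tested, 11 had at most 10 reads in any library and 2 were at 0 throughout. Of the 9, 5 were above 0 and 4 below, with a median log2 fold change of 0.11. With an adjusted p under 0.05 there were 0 (limma), and 0 at an unadjusted p under 0.05. Every TG library was above every WT library in 2 of them, Cxcr3 and Ccr1, beside 6.35% of all genes. In Cxcr3 TG1 and WT1 both had 0.219 FPKM, apart only in a further decimal. Apart from Cx3cr1, only the decoy receptor Ackr1 reached 1 FPKM, with 25.4 to 35.5 FPKM in WT and 25.1 to 32.3 in TG and a log2 fold change of -0.04. Of its exon bases 25.7% are shared on the same strand with the neuronal gene Cadm3 (63.6 FPKM), so its level is uncertain.

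The shared machinery downstream of the receptors had small fold changes. Of 14 genes for G proteins, arrestins, receptor kinases, a brake on G proteins and proteases, 12 had a fold change above 0 and 2 below. The median log2 fold change was 0.09, and 0 had an adjusted p under 0.05 (limma) or an unadjusted p under 0.05. The inhibitory G protein subunits Gnai1, Gnai2, Gnai3 and Gnao1 had log2 fold changes of -0.09, 0.07, 0.16 and 0.02. The arrestins Arrb1 and Arrb2, which carry the Ackr3 signal, had 0.09 and -0.15 at 23.0 ± 1.95 and 13.3 ± 1.22 FPKM in WT against 24.5 ± 1.77 and 12.04 ± 1.17 in TG (SD, n = 3 each). The kinases Grk2, Grk3, Grk5 and Grk6, which switch receptors off, had 0.03, 0.13, 0.10 and 0.03, and Rgs16, which shortens G protein signals, had 0.25. In Dpp4, the peptidase that trims Cxcl12 and Cxcl10, every TG library was above every WT library, as in 6.35% of all genes. Its means were 0.160 ± 0.0327 in WT and 0.270 ± 0.0478 FPKM in TG (SD, n = 3 each), with a log2 fold change of 0.51 and an unadjusted limma p of 0.154.

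**Figure D5:**
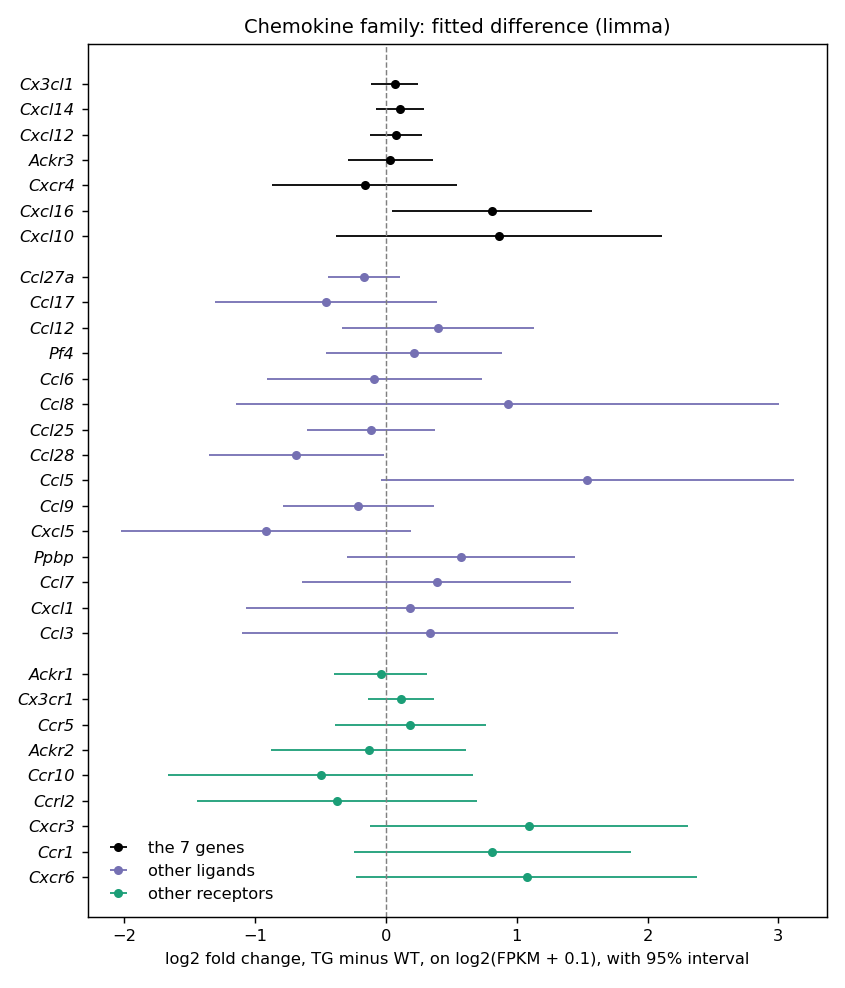
Fitted log2 fold change, TG minus WT, on log2(FPKM + 0.1) with its 95% limma interval, for the 7 members and for the tested genes of the other ligands and the other receptors. Intervals of the abundant members such as Cx3cl1 (-0.12 to 0.25) are narrow around 0, whereas those of Cxcl16 (0.05 to 1.58) and Cxcl10 (-0.39 to 2.11) are wide.

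The genes most like each member over the 6 libraries are given as a description. Pearson correlations of log2(FPKM + 0.1) were taken with the genes of at least 1 FPKM (13324 to 13325 genes), and all points share the same 6 libraries, so high values are common. Cx3cl1 was closest to Pias4 (r = 0.989) and Klc2 (0.988), Cxcl14 to Phtf2 (0.973) and Ddit4l (0.971), and Cxcl12 to Csmd2 (0.998) and Foxk1 (0.997). Cxcr4 was closest to Tyrobp (r = 0.996), the adaptor of microglial receptors, and to Efna1 (0.992), and Ackr3 to Tvp23b (0.996) and Irf3 (0.992). Cxcr4 stood apart mainly in TG1 (0.734 FPKM, against 1.34 to 1.76 in the others), so its correlations rest largely on that library. For Cxcl16 the closest genes were Phospho2 (r = 0.997) and Foxn2 (0.988), and for Cxcl10 Bbx (0.991) and Ptpn12 (0.991). The share of genes with r of at least 0.9 ran from 0.428% for Cxcl14 to 6.27% for Cxcl12.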

How the data were processed

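RNA-seq of hippocampus from 3 WT and 3 TG mice was used, grouped by the labels. The authors counted reads per gene with HTSeq and deposited FPKM, 1 column per library. The aligner and the use of strand are not given in the sources used here, and the submitters' processing notes name GRCm38 and mm10. The study's methods name Trizol and a NEBNext Ultra kit, whereas the labels name an RNeasy and a SMARTer kit. Of 54532 identifiers, 54409 were in GENCODE M21, 53499 with the same start and end, the 7 members among them. FPKM times gene length gave whole reads for 100% of values (tolerance 0.05). Reads carry no molecular identifiers, so counting intervals (exact Poisson, 95%) cover counting only.

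Genes with a mean of at least 0.1 FPKM (20952) were tested on log2(FPKM + 0.1) by limma (version 3.58.1, R 4.3.3) using eBayes trend, no covariate, two-sided, Benjamini-Hochberg over all of them and a threshold of 0.05. The fit was tested on simulated data with the same variance setting for all genes and changes only in genes with more reads than Cxcl10. It did not check the recovery of changes in genes as low as Cxcl10. Exact permutation tests, figures and sequence searches used Python 3.11.15, numpy 2.4.6, pandas 2.3.3, scipy 1.17.1 and matplotlib 3.10.9. The members and lists (other ligands, receptors, signalling and processing genes, interferon response and markers of cell types) were chosen with earlier results of these data known. Named were all members, family genes of at least 1 FPKM or with an unadjusted p under 0.05, the leading gene of a list and its genes at that p where the list stands beside a member, and the 2 genes most like each member. The leading gene of 1 list is not reported here. Cxcr3, Cxcr6, Ccl5, Cxcl9, Ccl8, Cxcl13, Cxcl11, Ccr1, Dpp4, Cd3e, Xist, Ddx3y, Eomes, Dcx and Sox11 were named after their values were seen. So were the single excitatory neuron markers other than Nrgn. Alternatives varied pseudocount, filter, scaling, variance model, limma-voom, replicate block and left-out libraries.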

Additional observations from a re-analysis of the deposited data

How the results depend on the processing

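None of the 7 members reached an adjusted p under 0.05 in limma under any of the 15 alternatives (14 for Cxcl16 and Cxcl10, which could not be fitted at a mean of at least 1 FPKM). Across these, Cx3cl1, Cxcl12, Cxcl14, Cxcl16 and Cxcl10 kept a log2 fold change above 0, with ranges of 0.018 to 0.11, 0.0049 to 0.13, 0.074 to 0.16, 0.32 to 1.04 and 0.18 to 1.91. For Cxcl16 and Cxcl10 the low ends came with a pseudocount of 1, and the high end of Cxcl10 with a pseudocount of 0.01, which sets the weight of its few reads. The unadjusted p of Cxcl16 was above 0.05 with no filter (0.0563) and under the replicate block (0.0538) and was 0.0253 with limma-voom on recovered reads. Leaving out 1 library in turn gave -0.060 to 0.15 for Ackr3, which was below 0 without WT1 (-0.022), WT2 (-0.023) and TG2 (-0.060). For Cxcr4 it gave -0.38 to 0.20, above 0 only without TG1 (0.20). TG3 alone against WT, added after seeing the data because TG1 and TG2 stand apart in choroid plexus genes and resting on the assumption that 1 TG library varies like the others, gave 0.13 for Cxcr4.

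Over all genes, 1 was higher and 1 lower at an adjusted p under 0.05 (656 and 582 unadjusted). Limma called 0 and 0 with a pseudocount of 1 (623 and 576 unadjusted), a pseudocount of 0.01 (641 and 579), no filter (813 and 730), limma-voom (768 and 485) and TG3 alone (441 and 447), and at a mean of at least 1 FPKM 0 higher (439 unadjusted) and 1 lower. With 1 library left out, 0 to 6 were higher (6 without TG1) and 0 to 0 lower (406 to 717 unadjusted). The replicate block gave 0 and 0 (634 and 610 unadjusted) and changed the call of no member. Same-numbered libraries correlated by 0.0125, 0.0434 and 0.0031 in their deviations, and not every library correlated best with its own number. Values this small, from 3 libraries per group, cannot decide whether same-numbered libraries share more than a number. The median of the other ligands (0.18) was -0.17 at a mean of at least 1 FPKM and -0.12 to 0.28 with 1 library left out, lowest without TG2, and that of the signalling genes (0.086) was 0.052 to 0.14. The cause was not tested. Cxcl10 and Cxcl16, with at most 45 reads in a library, are limited by depth.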
